A study of Rattus norvegicus with 5 samples.

Results

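The S100 calcium-binding protein family was read from 10 rat genes, S100a1, S100a3, S100a4, S100a6, S100a8, S100a9, S100a10, S100a11, S100a13 and S100g, of 15154 genes measured on the arrays. Its members were listed by name, with earlier results of these data known, and each was found by matching the RefSeq accession of an array probe to the rat gene symbol. FRT cells, the Fischer rat thyroid line (strain Fischer), are epithelial cells with an apical and a basal side. As a thyroid model they are limited, since they keep the transcription factor Pax8 but little else of the thyrocyte programme. After 5 days of culture, 3D follicles grown in Matrigel, a basement membrane extract, were compared with confluent 2D monolayers, with no further treatment or genetic change named for either condition. Total RNA from 4 biological replicates of 3D follicles, labelled with Cy5, was hybridized to 4 Agilent 2-colour arrays. Each was set against the same mixture of monolayer cultures in Cy3. A last array, called the swapped array here, set that monolayer mixture in Cy5 against mixed follicle RNA in Cy3. All cultures came from this 1 line, and since the 2D cultures were pooled, the error terms below hold no spread between 2D cultures. The swapped array holds pooled RNA and is no further biological replicate, yet the fits below count it like the other arrays.

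S100 proteins are small EF-hand proteins that mostly work as dimers. On binding calcium, most of them open a hydrophobic face and dock to target proteins such as annexins, cytoskeletal motors and enzymes, while S100a10 has lost calcium binding and S100g acts as a calcium buffer. Several members are also released from cells and act on receptors such as RAGE, the product of Ager. Most S100 genes lie side by side in a cluster shared with epidermal differentiation genes, and in epithelia their transcripts follow differentiation, stress and remodelling.

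Promoter sequences are shown because members that lie next to each other moved differently. The 250 bases before the annotated start are printed for S100a3, S100a4 and S100a6, which lie near each other on the same strand, and for S100a9, the calprotectin gene read from the opposite strand. They were copied from RefSeq, build GRCr8, at chr2:178384263-178384512 (plus strand), chr2:178388279-178388528 (plus strand), chr2:178398287-178398536 (plus strand) and chr2:178490623-178490872 (minus strand), in the order below and 5′ to 3′ on the gene's strand. Capitals mark a TATA box (TATAAA) in S100a4 and S100a9 and a GC box (GGGCGG) in S100a3 and S100a6.
S100a3: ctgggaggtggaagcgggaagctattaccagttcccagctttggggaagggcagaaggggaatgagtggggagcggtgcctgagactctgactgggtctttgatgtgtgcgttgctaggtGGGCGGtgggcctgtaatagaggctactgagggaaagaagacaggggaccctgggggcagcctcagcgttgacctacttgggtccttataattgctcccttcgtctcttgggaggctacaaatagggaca
S100a4: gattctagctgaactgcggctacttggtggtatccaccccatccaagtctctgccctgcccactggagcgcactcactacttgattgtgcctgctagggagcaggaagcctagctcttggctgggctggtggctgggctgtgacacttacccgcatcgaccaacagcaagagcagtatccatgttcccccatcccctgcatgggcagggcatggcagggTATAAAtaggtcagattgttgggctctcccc
S100a6: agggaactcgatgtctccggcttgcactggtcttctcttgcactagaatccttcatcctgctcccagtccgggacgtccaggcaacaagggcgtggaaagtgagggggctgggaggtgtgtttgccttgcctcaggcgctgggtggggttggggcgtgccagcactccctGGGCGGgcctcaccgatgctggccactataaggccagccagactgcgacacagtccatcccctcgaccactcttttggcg
S100a9: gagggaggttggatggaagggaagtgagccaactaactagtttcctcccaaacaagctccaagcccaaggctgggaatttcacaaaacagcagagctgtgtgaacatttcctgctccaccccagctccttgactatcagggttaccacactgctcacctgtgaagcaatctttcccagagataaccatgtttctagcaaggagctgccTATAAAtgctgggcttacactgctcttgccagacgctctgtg
The first base of the TATA box lay 31 bases before the start in S100a4 and 42 in S100a9, and that of the GC box 130 bases before the start in S100a3 and 80 in S100a6. Promoters were given for 6 of the 10 members, the other 2 being S100a11 and S100a13. TATAAA, searched on both strands, was held by 2 of these 6, and by 12.9% of 33469 rat promoter windows of the same length. GGGCGG was held by 4 of the 6, with S100a11 having it at 64 and 59 bases and S100a13 at 82, and by 30.5% of all windows. CCAAT was found only in S100a13 among the 6, 185 bases before the start on the opposite strand, and in 34.0% of all windows. The AP-1 letters TGANTCA and the STAT letters TTCNNNGAA were in none of the 6 windows and in 6.34% and 7.67% of all windows. The matches in S100a11 overlap by 1 base, and a match describes the letters alone.

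Of the 10 members, 6 rose in 3D (S100a1, S100a4, S100a6, S100a9, S100a13 and S100g), 1 fell (S100a10) and 3 did not pass (S100a3, S100a8 and S100a11). Among all 15154 genes, 25.9% passed limma's test at a false discovery rate (FDR) of 0.01, 14.4% higher and 11.4% lower in 3D. The median log2 ratio of 3D over 2D was 0.46 over the 10 members and 0.00 over all genes. Over the 9 members and the 9018 genes above background on some array these medians were 0.54 and 0.03. The ratio had the same sign on all 5 arrays for 7 members, against 36.3% of all genes. Ratios are relative to each array's normalization, and in RNA of whole cultures fewer cells using a gene and less RNA per cell cannot be told apart. The arrays showed 7 members well above background in both conditions on all 5 arrays, S100a1 and S100a9 on all 5 in 3D but on 1 in 2D, and S100a8 on none. Each member was read from 1 probe with 2 spots, and the spots of a probe differed by a median of 0.05 to 0.16 in log2 ratio per member. The plot of log2 ratios by array shows every value behind these counts.

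**Figure D1:**
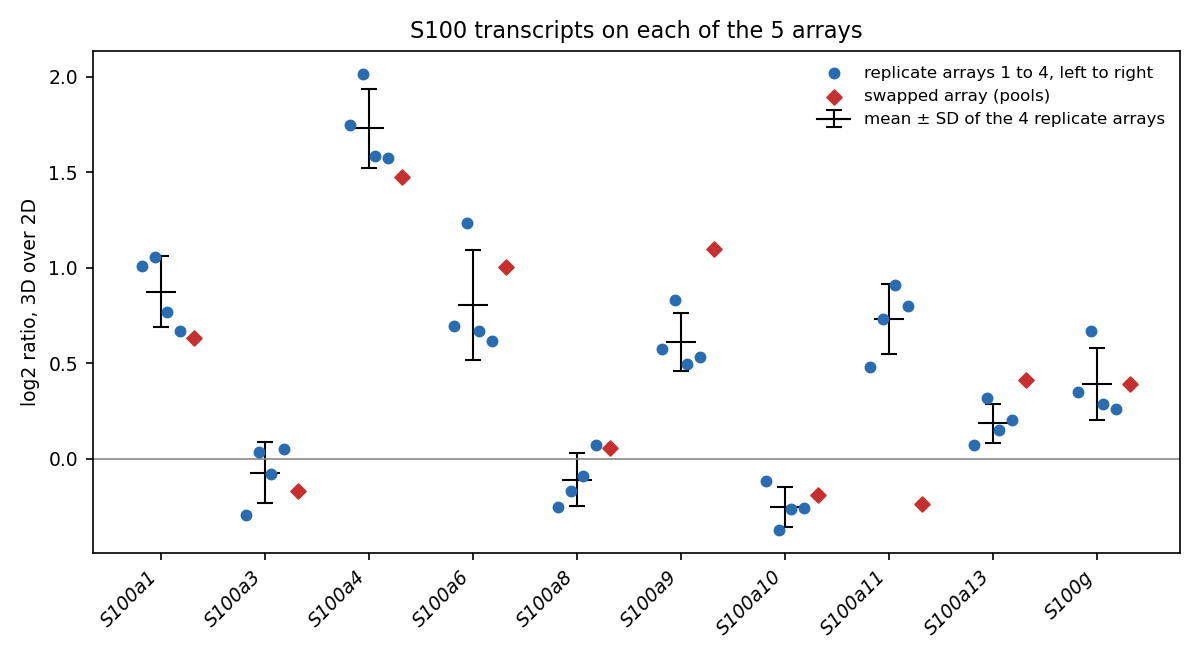
Log2 ratios of 3D over 2D for the 10 S100 genes: blue points are replicate arrays 1 to 4 from left to right, red diamonds the swapped array of pools, and bars the mean ± SD of the 4 replicate arrays. S100a4 lies highest, from 1.48 to 2.02, and S100a11 is at 0.48 to 0.91 across replicates 1 to 4 and -0.24 with dyes swapped.

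S100a4, which binds non-muscle myosin and is widely used as a fibroblast and metastasis marker, had the largest change of the family. Its log2 ratios were 1.75, 2.02, 1.58 and 1.57 on replicate arrays 1 to 4 and 1.48 with dyes swapped, a mean of 1.73 ± 0.21 (SD, n = 4). Every array put 3D above 2D, replicate 2 highest, and the replicate spread was small beside the change. Fitted over the 5 arrays the change was 1.68 (SE 0.07, 95% interval 1.51 to 1.84, limma adjusted p = 2.4e-07), a 3.20-fold rise, and 64 of the 15154 genes (0.422%) changed more in either direction. Normalized log2 intensities of its probe ran from 14.55 to 14.91 in 3D and from 12.87 to 13.43 in 2D. The groups of intensities did not overlap.

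S100a6, known as calcyclin and linked to proliferating and stressed epithelial cells, had log2 ratios of 0.70, 1.23, 0.67 and 0.62 on replicates 1 to 4 and 1.00 on the swapped array. Replicate 2 stood above the other 3 replicates, which lay close together. The 2D pool, the same RNA on every array, read 14.80 for this probe on the array of replicate 2 and 15.08 to 15.19 on the others, while 3D read 16.04 there and 15.71 to 16.19 on the others. The fitted change was 0.84 (SE 0.09, limma adjusted p = 5e-05, 1.79-fold), and without replicate 2 it was 0.75. With quantiles equalized over all channels, as the authors did, it was 0.61.

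**Figure D2:**
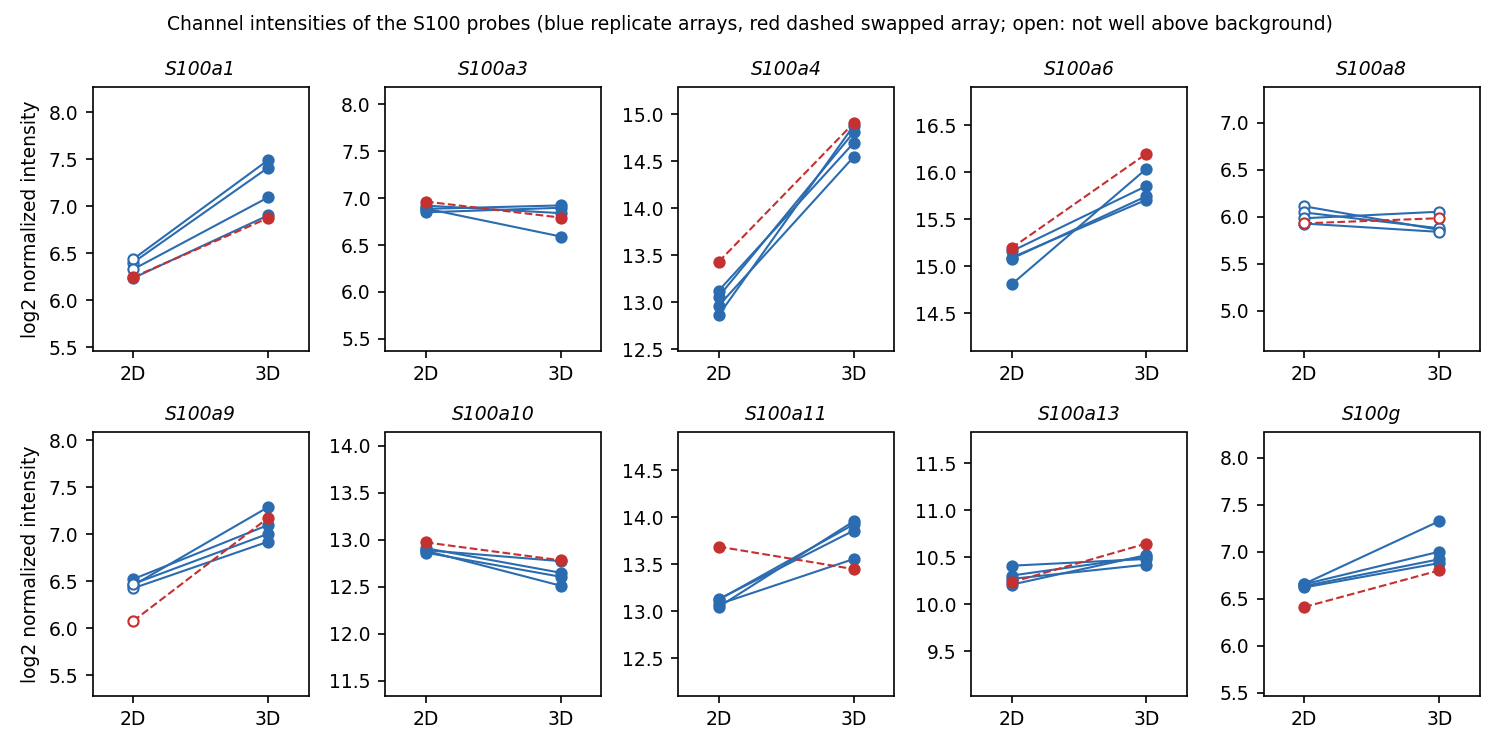
Normalized log2 intensity of each S100 probe in 2D and 3D, with a line for each array (blue, replicate arrays; red dashed, swapped array; open points, not well above background); each panel spans the same number of log2 units, and heights are not comparable between genes. S100a4 and S100a6 rise on every line, S100a10 falls on every line, and the 2D points of S100a1 and S100a9 are open on 4 of 5 arrays.

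S100a1, best known from heart and skeletal muscle where it acts on calcium cycling, gave ratios of 1.01, 1.05, 0.77 and 0.67 in the replicates and 0.63 in the swapped comparison. All 5 were positive, and the fit gave 0.83 (SE 0.07, limma adjusted p = 1.22e-05). Its raw median signals were low, 230.25, 211.5, 159 and 127.5 in 3D on replicates 1 to 4 and 73.5 on the swapped array. In 2D they were 39.5, 37, 34, 31 and 82.25. These signals hold the local background, 49.5 to 53.5 in Cy5 and 18.5 to 19.5 in Cy3, and are not comparable between dyes. In 2D the probe was well above background on the swapped array alone, where the pool carried the brighter dye Cy5. The size of its change ranged from 0.75 to 3.09 over the alternatives, lowest with a dye term and highest with Agilent's processed signals, so the size is uncertain, and its direction was the same in each of these 17.

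S100a13, which takes part in the release of Fgf1 and interleukin 1 alpha from stressed cells, had ratios of 0.07, 0.31, 0.15 and 0.20 and, on the swapped array, 0.41. The change was small, 0.23 (SE 0.05, limma adjusted p = 0.00825, 1.17-fold). Its intensities ran from 10.42 to 10.65 in 3D and from 10.21 to 10.41 in 2D, so every 3D value lay above every 2D value by a narrow margin. It passed in 8 of 17 alternatives, and without replicate 2 it was 0.21 with an adjusted p of 0.0409. S100a3, a hair cuticle protein, was measured in both conditions on all 5 arrays but had ratios of -0.30, 0.04, -0.08 and 0.05 and, swapped, -0.17. These values straddled 0, its intensities overlapped (6.59 to 6.92 in 3D, 6.85 to 6.96 in 2D), and the fitted difference of -0.09 (limma adjusted p = 0.27) had a 95% interval from -0.22 to 0.04.

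S100a8 and S100a9 encode the subunits of calprotectin, an abundant neutrophil protein that binds zinc and manganese and that inflamed epithelia also make. S100a9 had ratios of 0.58, 0.83, 0.50 and 0.53 in replicates 1 to 4 and 1.10 on the array of pools. The fit gave 0.71 (SE 0.08, limma adjusted p = 0.000125), and all 5 arrays were positive with the swapped array highest. Its raw signals in 3D were 179.5, 180.25, 137.25 and 142.5 on replicates 1 to 4 and 95 on the swapped array. In 2D they were 45, 40.25, 38, 38.75 and 71.25. These signals hold the local background, which was 49 to 52.5 in Cy5 and 17.5 to 20.5 in Cy3. They are not comparable between dyes. In 2D S100a9 was well above background on replicate 1 alone. Its change was 1.54 with no normexp offset and 2.68 with Agilent's processed signals, so the size of the change is uncertain. A model with a dye term gave 0.85 (adjusted p = 9.02e-06) beside a dye effect of -0.24 (adjusted p = 0.047).

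S100a8 was not well above background on any array in either condition. Its raw signals of 33 to 59.75 in 3D and 29.5 to 56.5 in 2D lay close to the local background, and its ratios of -0.25, -0.17, -0.09, 0.07 and 0.05 bear only on that background. A signal was thus measured for S100a9 but not for its partner subunit. Of 13 measured markers of neutrophils and macrophages, 0 rose and Lyz2 fell by 0.20, and their summed normalized intensity was 846 to 871 in 3D and 863 to 886 in 2D. Lyz2 was well above background on 1 array in 3D and 2 in 2D and passed in 9 of 16 alternatives, not with a dye term (-0.14) nor with any 1 replicate left out. In all, 4 of the 13 were above background on some array, the others being Laptm5 (2 arrays in 3D), Csf1r and Tyrobp (each 1 array in 2D). The defining markers Ptprc, Itgam, Csf3r, Elane, Adgre1 and Spi1 were not well above background on any array.

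S100a10 and S100a11 encode annexin partners. S100a10, also called p11, forms a heterotetramer with annexin A2 that carries channels and plasminogen to the cell surface. Its ratios were -0.12, -0.37, -0.26 and -0.26 on replicates 1 to 4 and -0.19 on the swapped array. All 5 arrays were negative, and it was the only member to pass downward, where it fell by 0.24 (SE 0.05, limma adjusted p = 0.00264), which is 1.18-fold lower in 3D. RefSeq lists a pseudogene, S100a10-ps1, and whether the probe also reads it is uncertain. The intensities of the probe ran from 12.51 to 12.78 in 3D and from 12.86 to 12.97 in 2D, without overlap. Of the 15154 genes, 3637 changed more in either direction. It passed in 10 of 17 alternatives, missed the threshold without replicate 2, 3 or 4 (adjusted p 0.0145, 0.0143 and 0.0146), and was 0.24 with an adjusted p of 0.532 when arrays were centred on the median in place of loess.

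S100a11, or calgizzarin, had ratios of 0.48, 0.73, 0.91 and 0.80 on the replicate arrays, averaging 0.73 ± 0.18 (SD, n = 4), but -0.24 on the swapped array. That array thus went against the other 4, and the fit of 0.54 (SE 0.14, 95% interval 0.22 to 0.86, limma adjusted p = 0.0151) did not pass. Its 2D intensity was 13.05 to 13.13 across replicates 1 to 4 and 13.69 with dyes swapped. With a dye term in the model the change was 0.25 (adjusted p = 0.0255) beside a dye effect of 0.48 (adjusted p = 0.007), and without the swapped array it was 0.73 (adjusted p = 1.63e-05). Since the dyes were swapped once, the dye cannot be told apart from other properties of that array. RefSeq also lists the close copies S100a11l1 and S100a11l2, so which transcripts this probe reads is uncertain.

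S100g, known as calbindin-D9k, the vitamin D dependent calcium buffer of intestine and placenta, had ratios of 0.35, 0.67, 0.28 and 0.26 in the replicates and 0.39 in the swapped comparison. All 5 were positive, and the fitted rise was 0.39 (SE 0.06, limma adjusted p = 0.000733, 1.31-fold). The probe was dim but well above background on every array in both conditions, with intensities of 6.80 to 7.33 in 3D and 6.41 to 6.66 in 2D that did not overlap, and without the normexp offset its change was 0.78. All 6 members that rose had their highest replicate value on replicate 2. Of 2182 genes that rose and were above background on some array, replicate 2 was highest for 26.9%, replicate 1 for 27.5%, replicate 3 for 25.8% and replicate 4 for 19.7%.

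**Figure D3:**
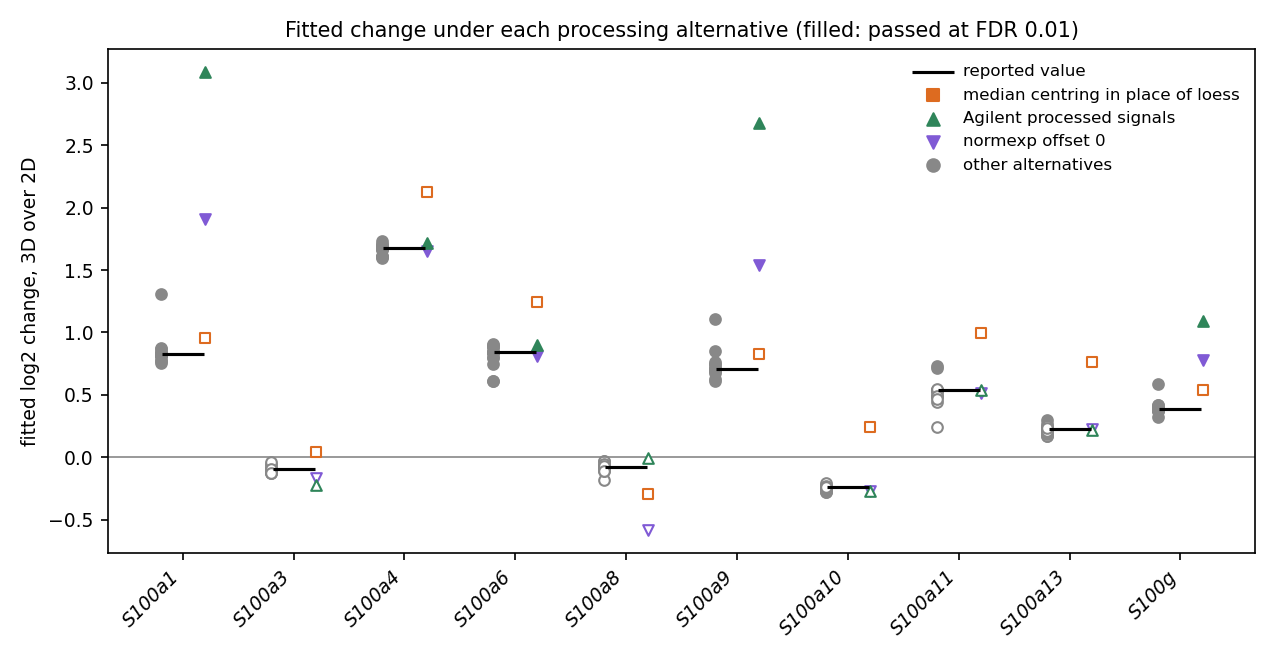
Fitted log2 change of 3D over 2D for each member under 17 processing alternatives, with a black line at the reported value and filled symbols where the gene passed at an FDR of 0.01. S100a1 and S100a9 move most, to 3.09 and 2.68 with Agilent's processed signals, and S100a10 turns from -0.24 to 0.24 under median centring.

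Of a list of 19 further S100 and fused-type genes, which also held the S100P-binding protein gene S100pbp, 8 were measured. S100a16 had ratios of 0.88, 1.06, 0.71 and 0.60 and, swapped, 0.93, a fitted rise of 0.84 (limma adjusted p = 8.18e-06). S100a5 rose by 0.23 (adjusted p = 0.00147) at its brightest probe, and the mean over its 2 probes, 0.17, did not pass (adjusted p = 0.0112). S100z was lower in 3D on every array, with ratios of -1.05, -0.88, -0.75 and -0.76 and, swapped, -0.76, a fitted change of -0.84 (adjusted p = 2.25e-06). S100a7a, S100a7l2, S100vp and S100b were not well above background on any array, and S100pbp, at 0.03, did not pass.

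The members sit mostly in 1 cluster, and RefSeq's gene order allowed a look along it. From S100a1 to S100a10 on chromosome 2 there are 71 coding genes, 15 of them named S100, and 23 were measured. Of the 14 measured S100 genes, 10 were above background on some array, 7 rose and 1 fell. Of the 9 other measured genes, 3 were above background, 0 rose and 0 fell by limma, 0 had an unadjusted p under 0.05, and their median log2 ratio was -0.04. The S100 genes that rose were at positions 1 (S100a1), 2 (S100a13), 4 (S100a16), 6 (S100a4), 7 (S100a5), 8 (S100a6) and 11 (S100a9). All measured S100 genes of the order except S100a11 and S100a10 lie at positions 1 to 14. Whether the place of a gene bears on its change was not tested. S100a3 at position 5 lay between risers without passing, and S100a11 and S100a10 closed the order at positions 70 and 71. S100g lies on chromosome X, and S100b on chromosome 20.

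**Figure D4:**
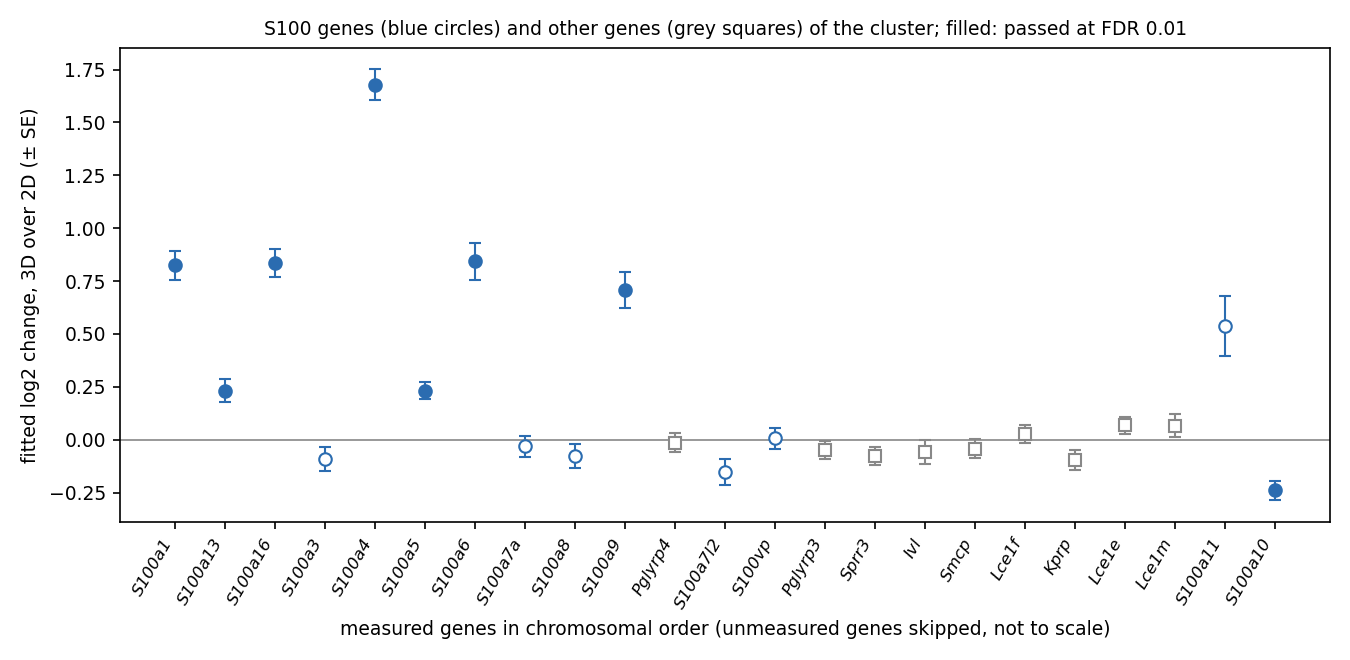
Fitted log2 change of 3D over 2D with its SE for the measured genes from S100a1 to S100a10 in chromosomal order, S100 genes as blue circles and others as grey squares, filled where the gene passed at an FDR of 0.01. Of 14 S100 genes 8 are filled, 7 of them above 0, and of 9 other genes 0 are filled.

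The binding partners of the members were described from lists. Of 26 measured annexins and other intracellular S100 partners, 10 rose and 2 fell (46.2% passed, against 25.9% of all genes), with a median of 0.12. Anxa2, the partner of S100a10, had ratios of 1.47, 1.49, 1.45 and 1.52 in replicates 1 to 4 and 0.44 on the array of pools. Its fitted rise of 1.27 (limma adjusted p = 8.96e-05) stood beside the fall of S100a10. With a dye term Anxa2 was at 0.96, beside a dye effect of 0.52 (limma adjusted p = 0.00158). Anxa1, the partner of S100a11, gave 0.81, 0.77, 0.54 and 0.66 and, swapped, 0.63, a rise of 0.68 (adjusted p = 4.63e-06). Anxa6 rose by 0.65 and Anxa11, which binds S100a6, by 0.36, while Anxa5 fell by 0.24. With Anxa4, up by 0.33, 5 of the 6 annexins on the list rose and 1 fell. Among all genes 14.4% rose and 11.4% fell. Ahnak, a scaffold of the Anxa2 and S100a10 complex, was not analysed here.

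Cacybp, the calcyclin-binding protein that takes part in protein turnover, had ratios of 0.89, 1.26, 0.90 and 0.92 and, swapped, 1.30, a rise of 1.06 (limma adjusted p = 3.45e-06). As for S100a6, replicate 2 was the highest replicate. Myh9, the myosin heavy chain bound by S100a4, was at -0.20 and did not pass (adjusted p = 0.0128). Fgf1, which S100a13 helps to export, rose by 0.37 in the fit, with 0.39 to 0.56 across replicates 1 to 4 and -0.01 with dyes swapped. Hltf, a helicase-like transcription factor, rose most on the list, by 1.34, and Stip1, a co-chaperone of heat shock proteins, fell by 0.29.

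**Figure D5:**
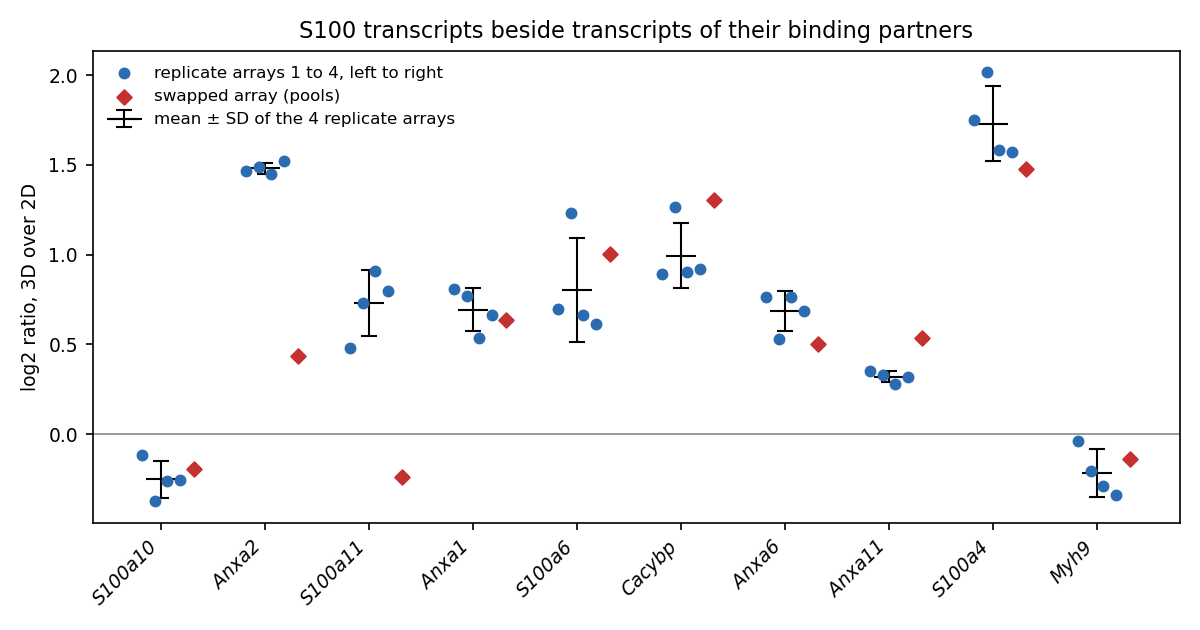
Log2 ratios of 3D over 2D for S100 members beside transcripts of known binding partners, with blue points for replicate arrays 1 to 4, red diamonds for the swapped array and bars for the mean ± SD of the 4 replicate arrays. Anxa2 and Cacybp are above 0 on every array, S100a10 and Myh9 below 0 on every array, and the swapped array is far from the others for Anxa2 and S100a11.

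In the lists around channels, receptors and calcium transporters, 6 of 10, 8 of 14 and 4 of 17 measured genes were above background on some array. Among all 15154 genes 9018 were. Of the 10 measured genes of channels, receptors and the protease system around S100a10, 0 passed by limma. Of these, 5 had an unadjusted p under 0.05, and the median was -0.05. Without the swapped array 4 of these 10 passed, and with array weights 5 did. Plau was not well above background on any array, and Kcnk3 on 1 array in 3D and 1 in 2D. Ctsb was negative on all 5 arrays, at -0.47 (limma adjusted p = 0.0122). With a dye term it was -0.73 (adjusted p = 4.75e-06). Of 14 measured receptors of secreted S100 proteins and molecules that act with them, 3 rose (21.4% passed, against 25.9% of all genes). They were the adaptor gene Myd88, by 0.79, and the receptor genes Alcam, by 0.31, and Egfr, by 0.23. Egfr passed in 9 of 17 alternatives, and missed the threshold without replicate 1 or 2 among others. Ager (0.07, adjusted p = 0.244) and Tlr4 (0.11, adjusted p = 0.138) were dim and did not pass, Ager being well above background on 2 arrays in 3D and 1 in 2D and Tlr4 on none. Trpv6, a calcium channel of both S100a10 and S100g tissues, was at 0.13 (adjusted p = 0.0523) and was well above background on 3 arrays in 3D and none in 2D. Of 17 measured genes of calcium entry, buffering and extrusion around S100g, 1 rose and 1 fell (11.8% passed). Atp2b1, the plasma membrane calcium pump, rose by 0.89, with 0.93 to 1.02 in the replicates and 0.52 in the swapped comparison. Cyp27b1, which activates vitamin D, fell by 0.46, a call lost without replicate 2, and the vitamin D receptor gene Vdr was not well above background on any array.

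Of 17 measured genes that accompany calprotectin in neutrophils and epithelia, 7 rose and 1 fell (47.1% passed, against 25.9% of all genes). Of the 17, 8 were above background on some array. Ccl20, among the risers at 0.20, was not well above background on any array. Complement C3 rose by 3.02, with 2.17 to 3.76 over the replicate arrays, the NF-kB inhibitor Nfkbia by 1.76 and the chemokines Cxcl2 and Cxcl1 by 1.59 and 1.57. Cxcl1 was at 0.69, 1.02, 2.09 and 2.16 on replicates 1 to 4. Lcn2, an iron-binding lipocalin often released with calprotectin, fell by 0.67, but its replicates differed in size. Its ratios were -0.90, -1.06, -0.16 and -0.11 on replicates 1 to 4 and -1.11 on the swapped array. The other EF-hand genes were mixed, with 4 of 30 measured rising, 6 falling (33.3% passed) and a median of -0.02. Vsnl1, a neuronal calcium sensor, fell by 1.48, Rcn1 fell by 0.56 and Nucb1 fell by 0.44. Myl6, a myosin light chain, rose by 0.44, with 0.48 to 0.57 in the replicates and 0.06 with dyes swapped. With a dye term Myl6 was 0.29, beside a dye effect of 0.24 (limma adjusted p = 0.0131).

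Of 15 measured genes of mesenchymal transition, which are often read together with S100a4, 1 rose and 3 fell. The share that passed, 26.7%, was near the 25.9% of all genes. Vim, well above background in both conditions on all 5 arrays, was at -0.20 and did not pass (limma adjusted p = 0.112). Its ratios were 0.19, -0.55, -0.22 and -0.15 on replicates 1 to 4 and -0.27 on the swapped array. The fibronectin gene Fn1 fell by 2.04 at its brightest probe and by 1.42 with the mean of its 2 probes. The matricellular growth factor gene Ccn2 fell by 1.25 and the gelatinase gene Mmp2 fell by 0.95. Mmp14, a membrane metalloproteinase, rose by 0.82, with 0.84 to 1.06 in the replicates and 0.31 with dyes swapped. With a dye term it was 0.63, beside a dye effect of 0.32 (limma adjusted p = 0.00781). Snai1, Snai2, Twist1, Zeb2 and Cdh2 were not well above background on any array. Of 9 measured fibroblast markers, 1 rose, Pdgfra by 0.55, and their summed intensity was 800 to 939 in 3D and 746 to 778 in 2D. Of these 9 markers 4 were above background on some array, Pdgfra and the collagen genes Col1a1 (0.06), Col1a2 (-0.11) and Col3a1 (0.38), and none of the 3 collagens passed. Col3a1 had ratios of 1.09, 0.78, -0.07 and -0.10 on replicates 1 to 4, so the replicates disagreed in sign. Dcn, Lum, Thy1, Postn and Pdgfrb were not well above background on any array, and the part of these markers in the change of S100a4 was not tested. Of 6 measured endothelial markers 0 passed by limma and 0 had an unadjusted p under 0.05, with summed intensities of 390 to 410 in 3D and 392 to 409 in 2D. Of 11 measured genes of the cornified envelope, which share the cluster or its tissues with S100 genes, 0 rose, and the transglutaminase Tgm1 fell by 1.09.

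The cells matched their label in part. All 12 epithelial markers were above background, with a median log2 ratio of -0.05. Their summed intensity was 35573 to 41905 in 3D and 42653 to 44763 in 2D. Of these markers 4 rose, Krt19 by 1.23, Ocln by 0.88, Grhl2 by 0.62 and Epcam by 0.29. The mean over the 2 probes of Grhl2 was 0.40. Cldn3 fell by 1.34 and Cldn4 by 0.48. Cldn7, at -0.63, did not pass, with -1.59, -1.02, -0.09 and 0.04 on replicates 1 to 4. Of 15 thyroid markers, 7 were above background on some array, and Pax8, Duox2 and Cdh16 rose by 0.71, 0.68 and 0.53. Pax8 was 0.65 to 1.02 in the replicates and 0.05 with dyes swapped, gave 0.46 with a dye term beside a dye effect of 0.41 (adjusted p = 0.00876), and passed in 14 of 17 alternatives. Tg, Tshr, Slc5a5 and Nkx2-1 were not well above background on any array. Across arrays 0 spots were saturated, 47.1% to 50.9% of probes were well above background in 3D and 45.01% to 50.1% in 2D, and log2 ratios correlated across genes with r = 0.871 to 0.946 between replicate arrays and 0.734 to 0.765 between these and the swapped array.

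By likeness of the 5 ratios, measured as the root mean square difference over 7589 genes above background in both conditions on all arrays, the genes nearest to S100a4 were Cxadrl1 (0.158), Smtnl2 (0.168) and Enpp3 (0.169). Nearest to S100a10 were Ctnnbip1 (0.0352), Lig1 (0.0374) and Vcl (0.0423). Vcl, which encodes vinculin, had ratios of -0.06, -0.35, -0.30 and -0.27 in replicates 1 to 4 and -0.13 on the array of pools.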

How the data were processed

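RNA of FRT cells was measured on 5 Agilent 2-colour rat arrays of 1 slide. The deposited intensities are median spot and local background signals from Feature Extraction 10.7.3.1 per the file headers, not normalized; its processed signals, from which it derives the deposited log10 ratios of Cy5 over Cy3, were background-subtracted and dye-normalized. The log10 ratios served only to check dye directions. The authors' deposited table of log2 ratios was made with limma (version not given in the sources used here) by normexp, loess and quantiles, and all 5 columns were found to run 3D over 2D.

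In R 4.3.3 with limma 3.58.1, median signals were corrected by normexp (offset 50), ratios normalized by loess with control and outlier spots at weight 0, outlier spots left out, and average intensities equalized by quantiles (Aquantile). Spots of a probe were averaged, and the brightest probe stood for a gene. The offset compresses changes of dim genes. A probe was well above background where at least 0.5 of its spots carried the software's mark. The array design names build rn4; 59.3% of 30367 probes gained a symbol through RefSeq (GRCr8) accessions, giving 15154 genes.

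1 coefficient, 3D over 2D with the swapped array's sign turned, was fitted with limma over the 5 arrays, with Benjamini-Hochberg adjustment over all genes and FDR 0.01. The number of arrays limits the precision. Standard errors, intervals and adjusted p values treat the swapped array of pools as an independent observation, which it is not. The fit was tested on simulated data. The alternatives covered background, normalization, probes, spots, a dye term, array weights and each array left out. The members and gene lists were chosen with earlier results of these data known. All members were named, and from each list up to 4 genes by size of change among those that passed, plus known partners and receptors fixed by name; other genes given beside these, such as Anxa5, Stip1, Fgf1, Myh9 and the markers, were named after their values were seen. Authors' comparisons were not used.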

Additional observations from a re-analysis of the deposited data

Results flagged for a closer look

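For S100a6, replicate 2 stood apart from the other replicate arrays. Its log2 ratio of 3D over 2D was 1.23, and the next highest replicate was 0.70. The gap was 0.871 of the whole range of the 4 values, above the 95% critical value of Dixon's test for 4 samples. Chance gives about 1 such value in 20 groups, and the 10 members were examined along with other S100 genes. On that array the 2D side of the probe read 14.80 and the 3D side 16.04 in normalized log2 intensity.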

How the results depend on the processing

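The 10 members' values were recomputed under 17 alternatives. Of 169 values, 145 kept their direction and their side of the threshold, 20 kept direction but no longer passed, 2 newly passed and 2 reversed. Calls among members numbered 5 to 8, against 7, outside median centring, and 5 to 7 with a replicate left out. Members lower in 3D were 0, against 1, with normexp offsets of 0 and 16 and with Agilent's processed signals, and 0 to 1 with a replicate left out. Median centring in place of loess left 0 members passing, 0 higher and 0 lower, 0 genes of the lists, against 43, and 7 of all genes, against 3918; the cause was not tested. With offset 0, 24 genes of the lists and 2223 of all genes passed. Under median centring S100a10 was 0.24, S100a3 0.0386, Nucb1 0.0899, Ager -0.049, Tlr4 -0.0584 and Vdr -0.15. Vdr, dim on every array and at 0.00, was also -0.31 with processed signals, -0.000449 with quantiles over all channels, -0.000457 in the authors' table, -0.0132 without the swapped array, -0.0272 with array weights, and -0.0187 to 0.0303 with a replicate left out. S100a11 passed without the swapped array (0.73) and with array weights (0.72). No paired analysis was possible because the 2D cultures were pooled. Where probes were dim, as for S100a1, S100a8 and S100a9, background limits the size of a ratio.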
